A study of Mus musculus with 6 samples.

Results

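Nodal, Lefty1, Lefty2, Tdgf1, Gdf3, Smad7 and Skil, 7 genes of the Nodal signalling pathway, were followed in total RNA of mouse embryonic stem cells (mESC). The genes were chosen by name from the 42450 genes of the deposited table, and each was found once. All 7 passed the filter on low counts, which left 18905 genes for testing. The study compared the male, feeder-independent line E14tg2a.4 (WT, 3 libraries) with a derivative of the same line that carries a gene-trap truncation in 1 of its Srrm2 alleles (Srrm2+/-, 3 libraries), to ask how the dose of this splicing factor bears on pluripotency. Both were kept on gelatin with leukaemia inhibitory factor (LIF) and moved to serum-free medium with LIF before collection. The Srrm2+/- line is a single clone, so an effect of the truncation and a property of that clone cannot be told apart. The 3 replicates of each group were separately frozen and thawed batches, taken at higher passage numbers in WT than in Srrm2+/-, so passage and genotype cannot be told apart either.

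Nodal is a secreted ligand of the transforming growth factor beta (TGF-beta) family. It binds activin receptors together with a co-receptor of the EGF-CFC type, and the receptors phosphorylate Smad2 and Smad3, which enter the nucleus with Smad4 and act with partners such as Foxh1. Among the genes that this signal switches on are Nodal itself and its secreted inhibitors Lefty1 and Lefty2, so the pathway carries both positive and negative feedback. In the mouse embryo it patterns the epiblast, the primitive streak and the left-right axis, and in mESC cultured with LIF several of its components are expressed.

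Library totals lay between 54151433 and 69933421 estimated counts, and the WT libraries were the 3 smallest. Srrm2 fell by 0.69 on the log2 scale in Srrm2+/- (SE 0.0503, adjusted p = 2.38e-05, edgeR), from 95.7 ± 3.94 to 59.4 ± 3.02 normalised counts per 1000000 (CPM; SD, n = 3), and its groups did not overlap. The stem cell label was checked against 7 embryonic stem cell markers, whose summed level was 3030 to 3140 CPM in WT and 2520 to 2640 CPM in Srrm2+/-. Of these, Sox2, Nanog, Zfp42 and Esrrb were lower, Utf1 was higher, and Pou5f1 and Sall4 did not pass the test. Summed primitive endoderm markers were 1.98 to 2.15 CPM in WT and 1.59 to 2.06 CPM in Srrm2+/-, and 0 of 4 tested passed. Summed primitive streak markers were 1.68 to 2.84 and 4.54 to 5.42 CPM (2 of 5 tested higher), and trophoblast markers 1.83 to 1.89 and 2.36 to 2.79 CPM (1 of 3 higher). Eomes was on both lists and was the trophoblast marker called higher, so these calls were not separate. Its call was kept in 1 of the 6 fits that left out 1 library. Neural markers summed to 92.3 to 96.4 and 65 to 70.3 CPM (2 of 4 lower), and fibroblast markers to 3.21 to 3.34 and 6.6 to 10.3 CPM (4 of 5 higher). No marker listed was at 0 in every library. The trophoblast marker Cdx2 and the neural marker Neurog2 were at 0 counts in each WT library and had too few counts to be tested. In Srrm2+/- replicates 1 to 3 Cdx2 had 5, 8 and 17 counts and Neurog2 0, 0 and 1. The part of the listed markers in the results below was not tested, and in bulk RNA fewer cells of a type and less RNA per cell cannot be told apart.

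The secreted inhibitors showed the largest differences among the 7 genes. Lefty2 was 3.92-fold lower in Srrm2+/- and Lefty1 1.93-fold lower. Nodal, Gdf3 and Smad7 were lower by smaller amounts, Skil was higher, and Tdgf1 did not pass the test. Of the 7 genes 5 were therefore called lower and 1 higher, where 11.7% of all tested genes were called lower, 13.6% higher and 25.3% in either direction. The groups did not overlap for 7 of the 7 genes, against 41.4% of all tested genes. The median log2 fold change over the 7 was -0.20, beside -0.00254 over all tested genes. Because the 7 genes were chosen with earlier results of these data known, these shares describe the 7 and do not test them as a set. All 7 lay in the upper part of the expression range, with 76.3% (Smad7) to 99% (Tdgf1) of tested genes at or below their level per length, and the background shares are over tested genes of every level.

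**Figure D1:**
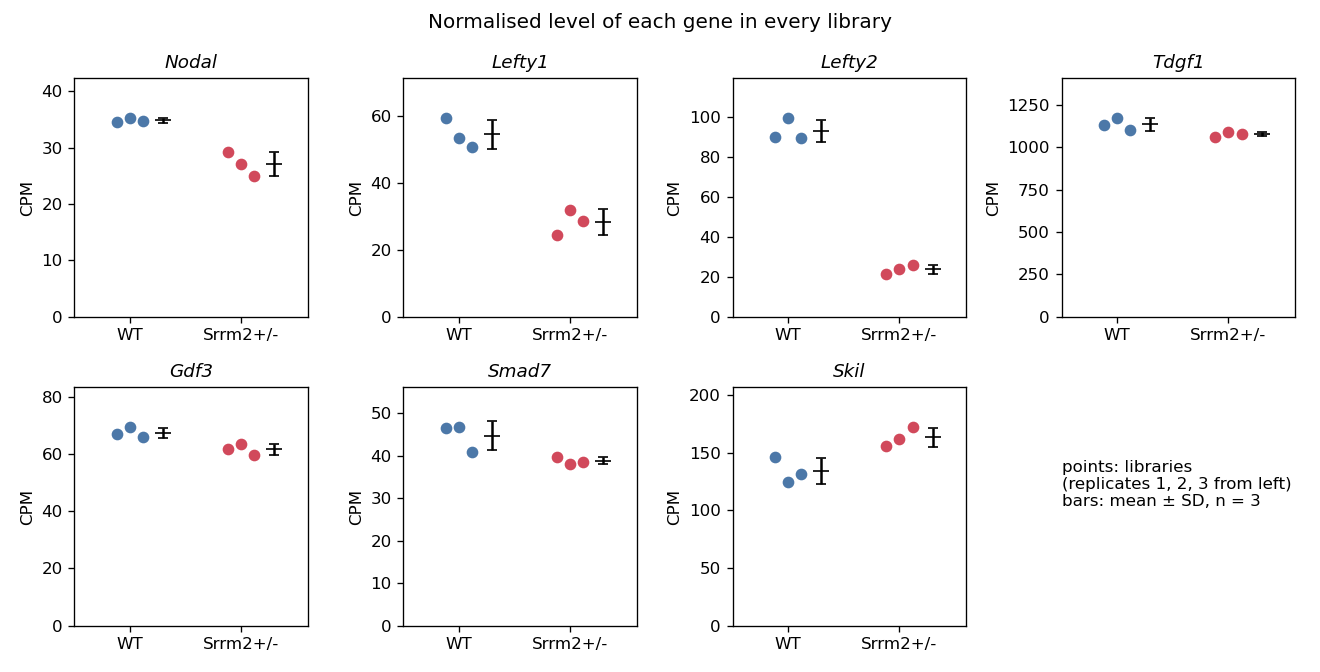
Normalised CPM (y axis of each panel, linear and starting at 0) of the 7 genes in the 3 WT and 3 Srrm2+/- libraries. Points are libraries and bars are group means with SD, and the Lefty2 points of Srrm2+/- lie between 21.5 and 26 CPM, far below the WT points at 89.2 to 99.3 CPM.

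Nodal, the ligand that gives the pathway its name (ENSMUSG00000037171, GRCm38 chr10:61417972-61425338, plus strand), stood at 34.5, 35.3 and 34.7 CPM in WT replicates 1 to 3 and at 29.3, 27.2 and 25 CPM in Srrm2+/- replicates 1 to 3. Every Srrm2+/- library was below every WT library. The means were 34.8 ± 0.386 and 27.1 ± 2.13 CPM, and the log2 fold change was -0.36 (SE 0.0611, 95% interval -0.50 to -0.22, adjusted p = 0.00281). Nodal in Srrm2+/- was thus at 78% of its WT level. A difference of at least this size was seen in 30.6% of tested genes.

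Gdf3, a TGF-beta family ligand that can form heterodimers with Nodal and signals through the same co-receptors (ENSMUSG00000030117, chr6:122605403-122610087, minus strand), was at 66.8, 69.3 and 65.9 CPM in WT and at 61.7, 63.3 and 59.4 CPM in Srrm2+/-. The groups did not overlap but came within a few CPM of each other. The log2 fold change was -0.13 (SE 0.0413, 95% interval -0.22 to -0.037, adjusted p = 0.0474). This call sat at the threshold and was lost in 11 of 14 alternative fits, among them each of the 6 that left out 1 library (adjusted p from 0.0656 without Srrm2+/- replicate 2 to 0.178 without Srrm2+/- replicate 3), while the direction was the same in all 14. Over the 14 the adjusted p ran from 0.0418 to 0.178. A difference at least as large as that of Gdf3 was seen in 62.5% of tested genes.

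The ratio of Nodal to Gdf3 was lower in Srrm2+/-. On the log2 scale the WT libraries averaged -0.95 ± 0.0251 and the Srrm2+/- libraries -1.18 ± 0.0929 (SD, n = 3), a difference of -0.23, with no overlap (exact two-sided permutation test, p = 0.1, adjusted over 3 ratios 0.1). With 3 against 3 libraries 0.1 is the smallest p this test can give.

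Tdgf1, also called Cripto, encodes the EGF-CFC co-receptor of Nodal and Gdf3 (ENSMUSG00000032494, chr9:110939603-110946158, minus strand). Its level was 1133, 1173 and 1100 CPM in WT and 1064, 1093 and 1080 CPM in Srrm2+/-. The highest Srrm2+/- library lay just below the lowest WT library. The log2 fold change was -0.07 (SE 0.0393, adjusted p = 0.219), and its 95% interval ran from -0.16 to 0.016, so falls larger than that lower bound were outside the interval. The adjusted p of Tdgf1 stayed between 0.145 and 0.506 under every alternative run.

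Reads of Tdgf1 are shared with a processed copy. Of the 31-base words of Tdgf1 transcripts 12.6% also occurred in another gene, and 12.5% occurred in the pseudogene Tdgf1-ps1, whose coding-like sequence matched 506 of 513 bases of Tdgf1 (98.6%). The pseudogene Tdgf1-ps2 matched 462 of 502 aligned bases (92%) and held between 1 and 5 counts per library. Tdgf1-ps1 held 6459, 7316 and 6415 estimated counts in WT and 6935, 7458 and 6346 in Srrm2+/-. Those counts are not scaled for library size, and each Srrm2+/- library was larger than each WT library. Counts this alike thus stand for a lower scaled level in Srrm2+/-, and the fold change of Tdgf1-ps1 alone is not given here. How many of the counts of Tdgf1-ps1 came from Tdgf1 transcripts cannot be told from estimated counts. The longest stretch that both genes share is shown because a read pair that lies wholly inside it fits both equally well. It spans coding positions 282 to 435 of each (GENCODE M21, 154 bases).
Tdgf1 and Tdgf1-ps1: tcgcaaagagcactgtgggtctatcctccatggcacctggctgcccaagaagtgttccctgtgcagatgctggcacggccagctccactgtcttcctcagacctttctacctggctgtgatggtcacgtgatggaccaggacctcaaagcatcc
With the counts of Tdgf1 and both pseudogenes summed, the log2 fold change was -0.09 (SE 0.0395, adjusted p = 0.15), which also did not pass.

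Lefty1 and Lefty2 encode secreted TGF-beta family proteins that block Nodal signalling by binding Nodal and its co-receptor. They are neighbours on chromosome 1, both on the plus strand, Lefty2 (ENSMUSG00000066652) at chr1:180893108-180899103 and Lefty1 (ENSMUSG00000038793) at chr1:180935022-180938400, with 35919 bases between them. Their coding sequences, 1104 bases each, were identical at 1014 positions (91.8%) and differed at 90. Because reads from stretches alike in both can be assigned to either gene, the 60-base coding window with the most differences is shown (positions 34 to 93, GENCODE M21), where reads separate the genes. Capitals mark the 18 positions at which they differ.
Lefty1: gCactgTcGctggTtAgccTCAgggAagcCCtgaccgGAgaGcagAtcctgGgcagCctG
Lefty2: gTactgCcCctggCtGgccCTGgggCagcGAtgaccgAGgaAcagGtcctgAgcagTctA
Of the 31-base words of Lefty1 transcripts, 443 of 1726 (25.7%) occurred in Lefty2. The same 443 words made up 17.2% of the 2579 words of Lefty2, so most words of each gene were its own. Sharing was less for the other genes, at 2.97% of words for Gdf3, 0.194% for Nodal and 0 for Smad7 and Skil.

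Lefty2 stood at 89.8, 99.3 and 89.2 CPM in WT and at 21.5, 23.6 and 26 CPM in Srrm2+/-. The lowest WT library was more than 3 times the highest Srrm2+/- library. The means were 92.8 ± 5.68 and 23.7 ± 2.25 CPM, and the log2 fold change was -1.97 (SE 0.074, 95% interval -2.14 to -1.80, adjusted p = 6.39e-07). Lefty2 in Srrm2+/- was at 25.5% of its WT level, and 2.03% of tested genes differed by at least as much.

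Lefty1 stood at 59.5, 53.5 and 50.9 CPM in WT and at 24.4, 31.9 and 28.7 CPM in Srrm2+/-, again without overlap. The means were 54.6 ± 4.39 and 28.3 ± 3.81 CPM. The log2 fold change was -0.95 (SE 0.097, 95% interval -1.17 to -0.73, adjusted p = 0.00017), which put Lefty1 at 51.9% of its WT level, and 8.78% of tested genes differed by at least as much. With the counts of both genes summed, which removes any exchange of reads between them, the log2 fold change was -1.50 (SE 0.0734, adjusted p = 2.83e-06).

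The inhibitors fell by unequal amounts. The log2 ratio of Lefty1 to Lefty2 (CPM) averaged -0.76 ± 0.153 over the WT libraries and 0.25 ± 0.161 over the Srrm2+/- libraries (SD, n = 3), a difference of 1.02 with no overlap (exact two-sided permutation test, p = 0.1, adjusted 0.1, the smallest this design allows). Per length, Lefty2 was the more abundant of the pair in each WT library and the less abundant in each Srrm2+/- library. In WT replicate 1 the pair was nearly equal. The order per length also rests on the exonic lengths used, 2611 bases for Lefty2 and 1758 for Lefty1, so the order in WT was not resolved. Lefty1 made up 49.6, 44.4 and 45.9% of the summed Lefty level in WT and 62.7, 66.8 and 62.2% in Srrm2+/-.

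**Figure D2:**
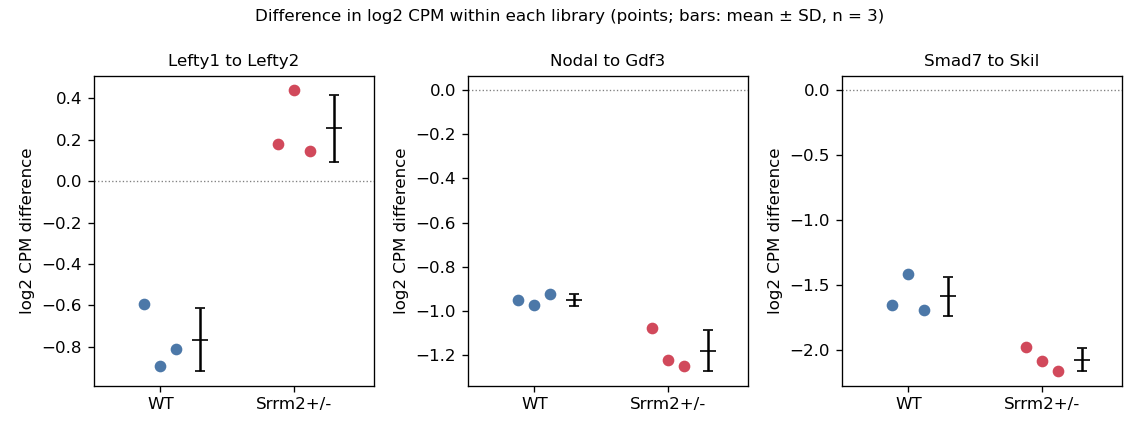
Log2 ratios of normalised CPM (y axis) of Lefty1 to Lefty2, Nodal to Gdf3 and Smad7 to Skil in the 3 WT and 3 Srrm2+/- libraries. Points are libraries and bars are means with SD, and the Lefty1 to Lefty2 ratio lies below 0 in every WT library and above 0 in every Srrm2+/- library.

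Smad7, an inhibitory Smad that competes for the activated receptors and brings ubiquitin ligases to them (ENSMUSG00000025880, on chromosome 18), was at 46.7, 46.8 and 40.8 CPM in WT and at 39.8, 38.2 and 38.6 CPM in Srrm2+/-. The groups did not overlap, although WT replicate 3 stood close to the Srrm2+/- libraries. The log2 fold change was -0.20 (SE 0.0595, 95% interval -0.34 to -0.069, adjusted p = 0.0344). Changes at least this large were seen in 48.5% of tested genes. The call was lost when WT replicate 1, WT replicate 2 or any one of the Srrm2+/- libraries was left out (adjusted p from 0.0626 to 0.115), and the direction was the same in each.

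Skil, which encodes the Smad corepressor SnoN (ENSMUSG00000027660, chr3:31095058-31122577, plus strand), was at 146, 125 and 132 CPM in WT and at 156, 162 and 172 CPM in Srrm2+/-. It was the one gene of the 7 that was higher in every Srrm2+/- library. The means were 134 ± 10.9 and 163 ± 8.14 CPM, with a log2 fold change of 0.28 (SE 0.0626, 95% interval 0.14 to 0.43, adjusted p = 0.0103), or 122% of the WT level. Of tested genes 37.8% differed by at least as much. Both Smad7 and Skil are induced by TGF-beta family signals in many cells and act inside the cell against them. The log2 ratio of Smad7 to Skil was -1.58 ± 0.148 in WT and -2.07 ± 0.0914 in Srrm2+/-, a difference of -0.49 without overlap (exact two-sided permutation test, p = 0.1, adjusted 0.1).

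**Figure D3:**
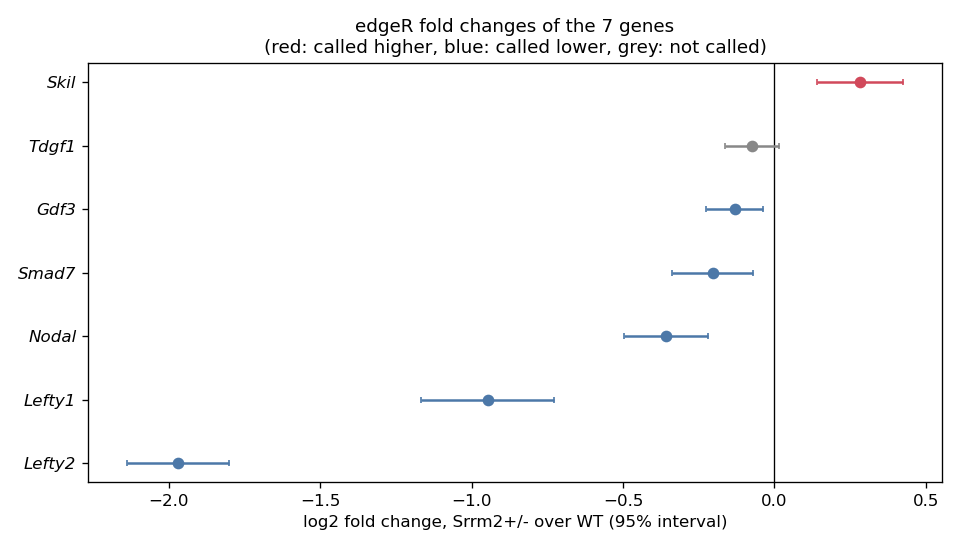
Log2 fold change of Srrm2+/- against WT (edgeR, x axis) for the 7 genes, with 95% intervals as bars, red for higher, blue for lower, grey for not called and a line at 0. Lefty2 at -1.97 and Lefty1 at -0.95 lie farthest from 0, Skil is the one gene to the side of higher levels at 0.28, and the interval of Tdgf1 includes 0.

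Levels of different genes were compared as CPM per kilobase of exonic sequence (RPKM). In WT the order was Tdgf1 (433 RPKM), Lefty2 (35.5), Lefty1 (31.1), Gdf3 (27.8), Nodal (16.6), Skil (13.9) and Smad7 (9.90). No neighbours in that order overlapped across the 3 libraries, although Lefty2 (lowest library 34.2) and Lefty1 (highest library 33.8) came close. The order between genes also depends on the exonic length used for each, which the spread of libraries does not measure. In Srrm2+/- it was Tdgf1 (412 RPKM), Gdf3 (25.4), Skil (16.9), Lefty1 (16.1), Nodal (13.0), Lefty2 (9.07) and Smad7 (8.60). Skil and Lefty1, Lefty1 and Nodal, and Lefty2 and Smad7 overlapped there, so their order was not resolved. Lefty2 thus stood close to Lefty1 below Tdgf1 in WT and within the spread of the lowest of the 7 in Srrm2+/-. Tdgf1 was far above the others in both groups.

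**Figure D4:**
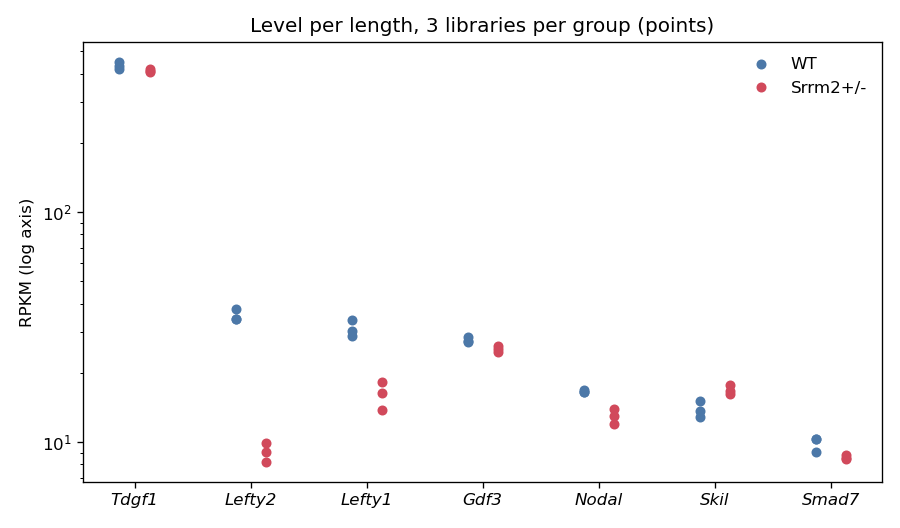
Normalised level per kilobase of exonic sequence (RPKM, log axis) of the 7 genes in WT and Srrm2+/-, with points for libraries. Tdgf1 lies at 406 RPKM or more in both groups, and Lefty2 moves from 34.2 to 38.0 RPKM in WT to 8.23 to 9.95 RPKM in Srrm2+/-.

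The genes whose profile over the 6 libraries was most like that of each of the 7 were found from the root mean square (RMS) difference of centred log2 CPM, a description without a test in which the group difference carries most of the profile. For Nodal they were Gjc1 (RMS 0.0158), Stat4 (0.0268) and Lrig2 (0.0289). For Lefty1 they were Porcn (0.0456), Gm15342 (0.0691) and Zfyve28 (0.0792). For Lefty2 they were the Y-linked genes Uty (0.139), Eif2s3y (0.152) and Ddx3y (0.16), at a larger distance than for the other 6. These Y-linked genes were themselves lower in Srrm2+/-, by log2 fold changes of -1.86, -1.7 and -1.74 (edgeR adjusted p = 1.7e-07, 1.32e-07 and 1.32e-07). Uty, for example, went from a mean of 88 CPM in WT to 24.3 CPM. Why Y-linked RNA differed between the lines was not tested. For Tdgf1 the genes most alike were Sucla2 (0.0141), Yipf4 (0.016) and Pfdn6 (0.0164), and for Gdf3 Atp5o (0.0117), Ndufaf3 (0.0146) and Hint1 (0.018). For Smad7 they were Tstd3 (0.0187), Fastkd1 (0.0198) and Tsacc (0.0244), and for Skil Tbc1d16 (0.0245), Pgk1 (0.0331) and Fpgs (0.0368). Among the 7 themselves Tdgf1 and Gdf3 were the closest pair (0.0391), Lefty1 and Lefty2 were 0.526 apart, and Lefty2 and Skil were the farthest apart (1.13).

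Genes within 100 kb of the 7 were examined because the Lefty genes are neighbours. Around the Lefty genes 6 (Lefty1) and 7 (Lefty2) neighbours were tested, each Lefty gene counted in the other's window, and in both windows Ephx1, an epoxide hydrolase, was lower. Ephx1 changed by -0.60 (SE 0.0784, adjusted p = 0.000655) on the log2 scale, less than either Lefty gene. Near Gdf3, 7 neighbours were tested. Nanog, a core pluripotency factor, was lower (log2 fold change -0.72, SE 0.0442, adjusted p = 8.6e-06) and Dppa3, a maternal factor also known as Stella, was higher (0.71, SE 0.0777, adjusted p = 0.000253), so called genes in that window moved in opposite directions. Near Nodal Pald1 was lower (-0.35, SE 0.0392, adjusted p = 0.000279, 3 tested), and near Tdgf1 Lrrc2 was lower (-0.43, SE 0.0465, adjusted p = 0.000237, 4 tested). None of the 4 tested near Smad7 or the 2 near Skil was called by edgeR.

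Another 49 genes of Nodal, activin and TGF-beta signalling were listed by role, and 42 of them were tested. Of these 12 were higher, 7 were lower and 23 did not pass (45.2% called, beside 25.3% of all tested genes), with a median log2 fold change of 0.01. This list too was chosen with earlier results of these data known, so the share called is a description. Of the 19 calls 11 held in all 14 alternative fits and 12 held whichever library was left out. The cases where a call was lost are given with the gene.

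Among 7 tested ligands 2 were higher and 2 lower. Tgfb2, a TGF-beta, was at 0.613, 0.571 and 0.653 CPM in WT and at 4.55, 5.41 and 4.93 CPM in Srrm2+/- (log2 fold change 3.02, SE 0.149, adjusted p = 2.9e-06), the largest change on the list. Inhba, which encodes the activin A subunit, was higher by 1.57 (SE 0.263, adjusted p = 0.00256) but below 1 CPM in every library, so it was not tested under the 1 CPM filter. Inhbb, the activin B subunit, was at 28.7, 30.9 and 20.4 CPM in WT and at 7.59, 13.1 and 10.2 CPM in Srrm2+/- (-1.38, SE 0.201, adjusted p = 0.00125), and Inhbe was also lower (-0.82, SE 0.148, adjusted p = 0.00373). The activin subunits thus moved in opposite directions.

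Of the genes that process or present the ligands, Furin, a convertase that cleaves Nodal precursors, was higher (0.68, SE 0.129, adjusted p = 0.00509). Pcsk6, the convertase PACE4, was lower (-0.28, SE 0.0687, adjusted p = 0.0154), a call lost without WT replicate 2 or without Srrm2+/- replicate 1. Cfc1, the other EGF-CFC co-receptor, was at 0.415 CPM or less in 5 of 6 libraries and did not pass.

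Among 7 tested receptors, the type I receptor Acvr1b (ALK4) was at 34, 36 and 32.4 CPM in WT and at 30, 28.5 and 27 CPM in Srrm2+/- (-0.26, SE 0.059, adjusted p = 0.0114). The type II receptor Acvr2a was lower by a small amount (-0.18, SE 0.0464, adjusted p = 0.0221), a call lost in 5 fits: with the replicate block, and without WT replicate 1 or 3 or Srrm2+/- replicate 2 or 3. Tgfbr2, the TGF-beta type II receptor, was higher (1.87, SE 0.235, adjusted p = 0.000533) from a mean of 0.699 to one of 2.55 CPM. Tgfbr3, betaglycan, was also higher (1.61, SE 0.471, adjusted p = 0.0353), with 5 to 17 counts in WT and 24 to 43 in Srrm2+/-. Its call was lost with the replicate block and without WT replicate 1 or 3 or Srrm2+/- replicate 1 or 3. Tgfbr3 was not tested under the 1 CPM filter. Acvr1c, Acvr2b and Tgfbr1 did not pass.

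Of 6 transducers and cofactors 3 were higher and 0 lower by edgeR. Smad3 rose by 0.43 (SE 0.103, adjusted p = 0.0143), a call lost without Srrm2+/- replicate 2 or 3. Zfyve9, the Smad anchor SARA, rose by 0.20 (SE 0.0545, adjusted p = 0.0264), a call lost without WT replicate 1 or 3 or Srrm2+/- replicate 2 or 3. Trim33, a Smad4-binding ubiquitin ligase, rose by 0.19 (SE 0.0406, adjusted p = 0.0089). Smad2, Smad4 and the Nodal cofactor Foxh1 did not pass, with log2 fold changes of -0.10, 0.06 and 0.13.

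Of the remaining inhibitors, 1 of 4 tested extracellular ones passed, Tmeff1, a membrane protein that binds the Nodal co-receptor (-0.18, SE 0.039, adjusted p = 0.009). Of 8 intracellular ones 1 passed, the Smad corepressor Tgif2 (0.37, SE 0.0509, adjusted p = 0.000868), and Ski, Tgif1, Smurf1, Smurf2, Ppm1a, Pmepa1 and Nedd4l did not. Cer1 and Fst, secreted antagonists, had too few counts to be tested.

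Among 7 tested target genes 3 were higher and 1 lower. T, the primitive streak gene brachyury, rose by 1.89 (SE 0.236, adjusted p = 0.000513) from 0.937, 1.124 and 0.597 CPM to 2.83, 3.87 and 3.16 CPM. Eomes, another streak gene, was higher by 0.79 (SE 0.238, adjusted p = 0.0387), but its call did not hold in 9 of 14 fits. It was lost with DESeq2, the filter of at least 1 count, the replicate block, and each library left out except WT replicate 2. Under the 1 CPM filter Eomes was not tested. Tgfbi, a secreted matrix protein, was lower (-0.90, SE 0.215, adjusted p = 0.0146), a call lost without Srrm2+/- replicate 1. Foxa2, Lhx1 and Sox17 had too few counts to be tested, and Gsc and Mixl1 were among those that did not pass. T and Eomes stayed below 4 CPM in every library, and Lefty1 and Lefty2, which are targets of the same signal, moved in the opposite direction.

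**Figure D5:**
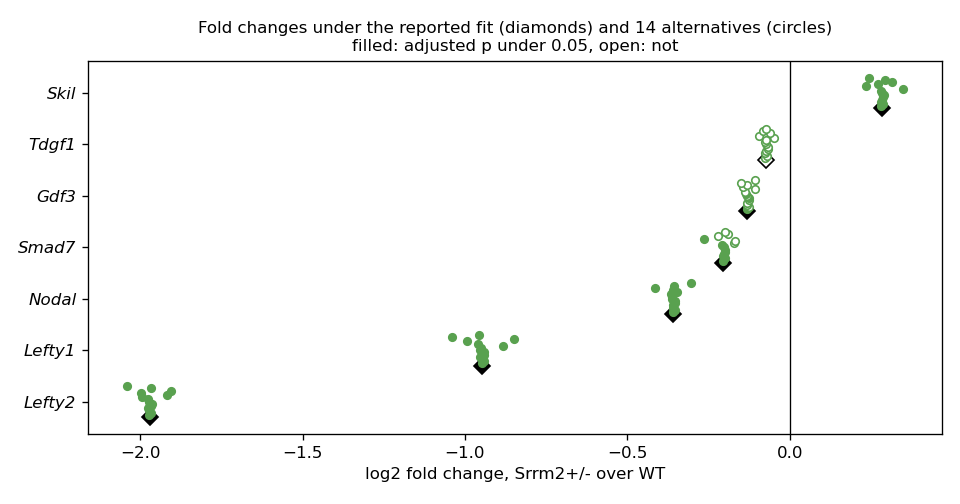
Log2 fold change of each of the 7 genes (x axis) under the reported fit (diamonds) and 14 alternatives (circles), 6 of which leave out 1 library, with filled symbols where adjusted p was under 0.05. Lefty2 and Lefty1 stay far below 0 throughout, Nodal and Skil keep their call, Gdf3 and Smad7 lose theirs under several alternatives, and Tdgf1 is never called.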

How the data were processed

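Total RNA libraries of 3 WT and 3 Srrm2+/- cultures were sequenced with paired ends, and groups and replicate numbers came from the sample titles. The authors estimated transcript abundance with kallisto 0.46.1 (mouse GENCODE M24, build GRCm38) and deposited expected counts per gene, not normalised. These were rounded to whole numbers. Reads that fit several transcripts are split between them by kallisto, which bears on Lefty1, Lefty2 and Tdgf1. Symbols, positions, exonic lengths and coding sequences came from GENCODE M21 on the same build, and 42156 of 42450 identifiers matched. Gdf1 was not analysed here.

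Genes past filterByExpr (minimum count 10, minimum total 15) were tested with edgeR 4.0.16 (R 4.3.3, TMM, glmQLFit and glmQLFTest, two-sided, genotype as the one term), with Benjamini-Hochberg adjustment over all tested genes and a call at adjusted p under 0.05. Adjusted p values are from this fit unless another tool is named. The SE is the log2 fold change divided by the square root of F. CPM used TMM-scaled library sizes, and log2 CPM a prior count of 2. Ratios were compared by exact permutation over the libraries. Named genes were the 7 members, Srrm2, the called genes of the pathway list, called neighbours within 100 kb and the 3 genes of most similar profile per member (mean log2 CPM of at least 1). The members and lists were chosen with earlier results of these data known. Alternatives were RLE and upper quartile scaling, DESeq2 1.42.0, voom of limma 3.58.1, other filters, the replicate block, each library left out, stricter call rules, removal of short RNA and mitochondrial genes, and summed counts of near-identical genes. The fits were tested on simulated data, where the share of false calls by edgeR was above the nominal rate and changed genes of low count were often missed, so calls close to the threshold are the least certain. Some genes that the naming rule selects, and 1 shared sequence, are not reported here.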

Additional observations from a re-analysis of the deposited data

How the results depend on the processing

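The log2 fold changes of the 7 members and Srrm2 and the 3 ratios kept their direction under every alternative run for them. Directions of other named genes under the alternatives were not tabulated. At adjusted p under 0.05, Nodal, Lefty1, Lefty2 and Skil kept their calls in all 14 alternative fits, and Tdgf1 was called in none of them. The log2 fold change of Gdf3 lost its call with upper quartile scaling (-0.126), DESeq2 (-0.132), voom (-0.131), the filter of at least 1 count (-0.125) and the replicate block (-0.131, adjusted p = 0.0564), and ranged from -0.151 to -0.105 with 1 library left out. That of Smad7 ranged from -0.265 to -0.169 with 1 library left out. The members called lower were 3 to 4 with 1 library left out, 3 at adjusted p under 0.01 and 1 at a 2-fold minimum change, and those called higher were 0 under both stricter rules. Of the other pathway genes 6 were higher at a 2-fold minimum change, and 3 (adjusted p under 0.01) and 1 (absolute log2 fold change of at least 1) were lower. Over all genes 1574 were higher and 1205 lower at adjusted p under 0.01, and 813 and 340 at a 2-fold minimum change. These stricter rules call fewer genes by construction. Why the other settings moved Gdf3 and Smad7 past the threshold was not tested.

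Same-numbered libraries did not deviate together (correlations -0.0285, -0.0337 and -0.03), and 0 of 6 libraries correlated best with their own number. With the replicate block 2281 genes were higher and 1885 lower, and 4 members were lower and 1 higher. The log2 fold change with the replicate block was -1.97 for Lefty2 and -0.95 for Lefty1. At this depth genes below about 1 CPM, such as Inhba and Tgfbr3, rest on few counts.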
